A study of Mus musculus with 23 samples.

Results

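Rtp1, Rtp2, Reep1, Ric8b, Stoml3, Umodl1 and Slc17a6 are 7 genes known from olfactory sensory neurons for moving odorant receptors to the cell surface, for supporting the G protein that receptors act on, or for work in cilia and at the synapse. They were taken by name, as 7 of the 23481 gene rows of every library. The rule itself uses no measured value, but the genes were chosen with earlier results of these data known. RNA bound to ribosomes with phosphorylated ribosomal protein S6 (pS6), a mark that rises in neurons after activity, was pulled down with a pS6 antibody from homogenates of olfactory epithelium of c57BL/6 mice at postnatal day 21. The mice had been exposed for 1 h, controls to no odor, and the cDNA was amplified before libraries were made. Acetophenone was given at 1% to litters 3 to 5 and at 100% to litters 1 to 3 (3 libraries each), and litters 1 to 5 gave 5 control libraries. For TMT (trimethylthiazoline, a fox odor) litters 1 to 4 gave 1 library each of control, 1% and 100%. Litters are numbered within each experiment. No genetic change is given for any group, and how many animals a library holds is not given in the sources used here.

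An odorant receptor has to leave the endoplasmic reticulum and reach the cilia before a neuron can respond. Rtp1 and Rtp2 (receptor transporting proteins) and Reep1 (receptor expression enhancing protein) are membrane-associated helpers that were found by their ability to bring odorant receptors to the surface of cultured cells. Ric8b is a guanine nucleotide exchange factor and chaperone of Gαolf, the G protein that carries the receptor's signal to adenylyl cyclase. Stoml3 is a stomatin-family membrane protein of olfactory cilia. Umodl1, also called olfactorin, encodes a protein with a zona pellucida domain. Slc17a6 encodes VGLUT2, which loads glutamate, the transmitter of olfactory sensory neurons, into synaptic vesicles.

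Promoter sequences from RefSeq (build GRCm38.p6) were matched for 6 of the 7 genes, in 7 windows that run from 250 bases before a start site to 50 after it. The stretches shown are those of Stoml3, the most abundant and least variable of the 7, and of the second start site of Slc17a6, the most variable, the first ending before the gene's first annotated exon (GENCODE) and the other lying within an intron of longer transcripts. Capitals mark the motif found.
Stoml3, chr3:53488457-53488652, plus strand: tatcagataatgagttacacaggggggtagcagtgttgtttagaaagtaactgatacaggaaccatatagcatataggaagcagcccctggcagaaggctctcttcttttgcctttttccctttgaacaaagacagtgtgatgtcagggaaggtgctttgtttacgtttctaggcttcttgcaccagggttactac
Slc17a6, second start site, chr7:51624387-51624636, plus strand: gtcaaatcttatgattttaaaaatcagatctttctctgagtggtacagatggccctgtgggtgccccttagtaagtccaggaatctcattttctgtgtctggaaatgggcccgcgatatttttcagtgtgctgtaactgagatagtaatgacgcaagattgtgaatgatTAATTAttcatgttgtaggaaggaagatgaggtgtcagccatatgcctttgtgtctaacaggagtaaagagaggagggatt
The capitals are TAATTA, a core sequence bound by homeodomain factors such as Lhx2, which starts 81 bases before that start site and is present in 5.29% of 32544 mouse promoter windows of this length. Neither the Ebf1 palindrome, the motif of an olfactory transcription factor (0.91% of windows), nor TATAAA (13.57%) was found in any of the 7 windows on either strand. A match is a run of letters and not a measured binding site.

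Uniquely aligned reads summed to between 2118099 and 9526932 per library. Levels are given as CPM, counts scaled to the library sizes that TMM sets over all 23 libraries, and groups were said to overlap or not on the scale of each comparison's own libraries. All 10 mature olfactory neuron markers (Omp, Adcy3 and others) were detected in every group, and their summed level ran from 978 to 4449 CPM. Libraries of acetophenone litter 3 stood apart, with 5.12 to 16.1 CPM of Adcy3 (adenylyl cyclase 3) against 218 to 739 CPM in the other 20 libraries. Omp was lowest in acetophenone litter 2 (111 to 188 CPM), against 209 to 265 CPM in litter 3 and 1390 to 1939 CPM in litters 4 and 5. The markers thus did not differ together between litters, which limits their sum as a measure of neurons. The codes in the library titles change between litters, so a litter and a library batch cannot be told apart. In RNA pulled down from a whole tissue, fewer neurons, less RNA per neuron and a smaller share of RNA pulled down cannot be told apart either. No library of RNA before the pull-down was used here.

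Per kilobase of transcript, Stoml3 was the most abundant of the 7 genes in 23 of 23 libraries, with a median of 1201 CPM per kb. That was a median of 33.8 times Ric8b (35.4 CPM per kb) within a library, with a lowest ratio of 9.41. Ric8b and Umodl1 (34.5 CPM per kb) were not separable: Ric8b was the higher in 13 of 23 libraries, with ratios from 0.388 to 1.67. Both stood above Rtp1 (3.67 CPM per kb), Umodl1 in 23 of 23 libraries. Rtp1 exceeded Rtp2 (3.30 CPM per kb) in 13 of 23 libraries and Rtp2 exceeded Slc17a6 (3.06 CPM per kb) in 15 of 23, so the order of these 3 was not fixed. Reep1 was lowest in 18 of 23 libraries, with a median of 0.38 CPM per kb. It had 0 to 44 counts and none in 4 libraries, where a count of 0 allows up to 3 counts.

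**Figure D1:**
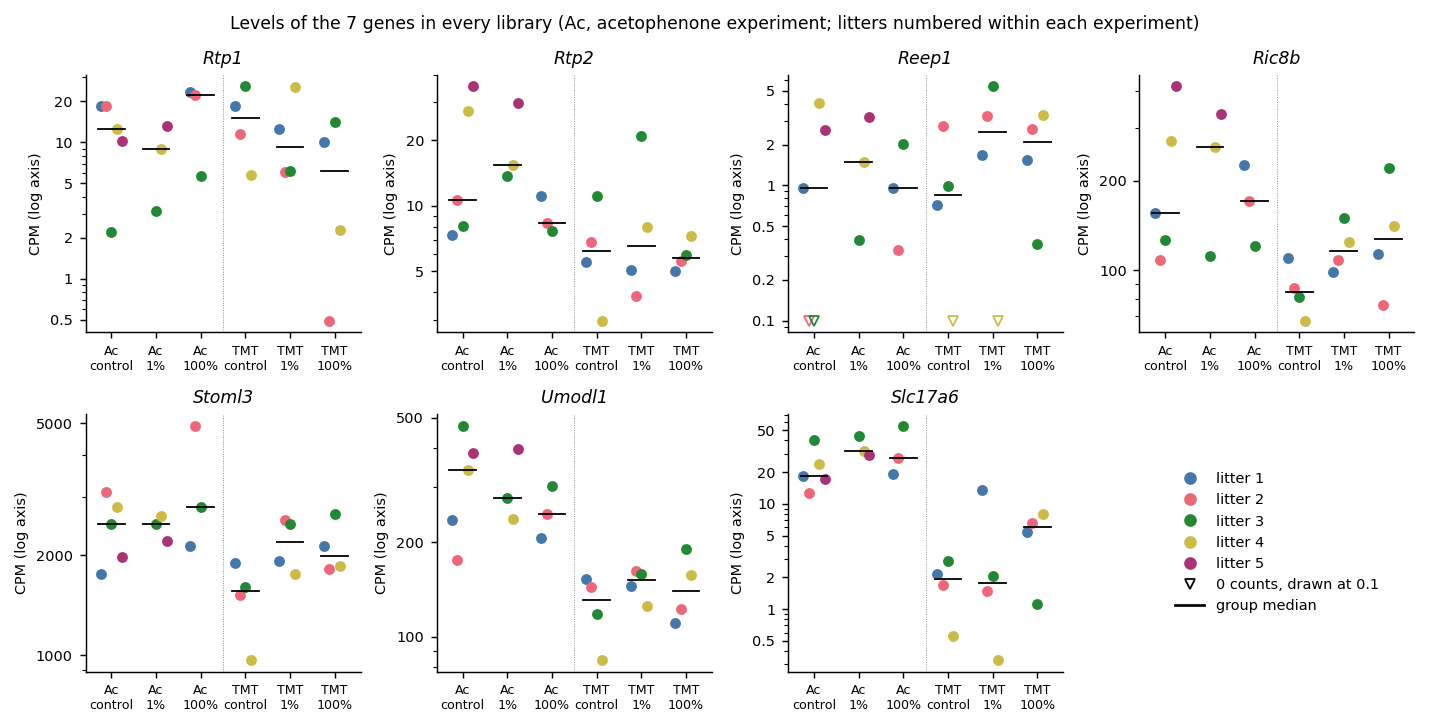
CPM of each gene (log axis) in every library, by group and coloured by litter, with group medians as bars and hollow triangles for 0 counts, drawn at 0.1. Stoml3 lies between 966 and 4917 CPM, Slc17a6 spans 0.33 to 55.3 CPM, and libraries of 1 litter often sit together in the acetophenone experiment.

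None of the 7 genes passed an adjusted p of 0.05 in any of the 6 comparisons (edgeR quasi-likelihood test, Benjamini-Hochberg adjustment over all genes tested), with or without litter as a block. Reep1 was too low to be tested in the 3 acetophenone comparisons. Without the block 0% of all genes tested were called in each comparison, so the count for the 7 genes equals the background. Within litters (with the block) the shares called were 0.0951% of 11564 genes with 100% acetophenone, 0.00828% of 12077 with 1% acetophenone, 2.37% of 13233 with 100% TMT and 0.00756% of 13233 with 1% TMT. They were 0% between the doses of either odor. DESeq2 also called none of the 7 genes in any comparison. The share of all genes that DESeq2 called was not counted, so that result has no background to be read against.

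Single unadjusted p under 0.05 occurred in a few of the 7 genes, at rates to be read against all genes. With 100% acetophenone 0 of 6 passed without the block (61 genes, 0.527%) and Stoml3 alone passed within litters (5.27%). With 1% acetophenone 0 of 6 passed in either fit (93 genes, 0.77%, and 8.51% within litters). With 100% TMT Ric8b and Stoml3 passed in both fits (1944 genes, 14.7%, and 19.6% within litters). With 1% TMT Stoml3 alone passed in both fits (568 genes, 4.29%, and 7.16% within litters). Between the acetophenone doses 0 of 6 passed (6.27% within litters and 1.72% without the block), as did 0 of 7 between the TMT doses (5.27%, and 8.07% within litters).

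In no comparison with control did any of the 7 genes separate odor from control libraries without overlap. Over all genes that happened, higher and lower, for 1.92% and 2% with 100% acetophenone, 1.76% and 1.94% with 1% acetophenone, 4.65% and 4.45% with 100% TMT and 0.937% and 1.35% with 1% TMT. Between doses the shares were 2.85% and 2.84% for acetophenone and 1.67% and 1.83% for TMT. Genes higher or lower in every litter made up 14.8% and 13.4% with 100% acetophenone, 16.7% and 14.9% with 1% acetophenone, 14.7% and 13.6% with 100% TMT, 8.91% and 7.87% with 1% TMT and 9.02% and 7.94% between the TMT doses. The median log2 fold change of the genes tested was 0.39 for the 6 measured with 100% acetophenone (-0.01 over all genes), -0.09 with 1% acetophenone (0.01), 0.56 for the 7 with 100% TMT (0.02) and 0.54 with 1% TMT (0.02). Mature neuron markers had a median of 0.28 with 100% acetophenone (7 of 9 positive), -0.12 with 1% acetophenone (3 of 10), 0.23 with 100% TMT (9 of 10) and 0.22 with 1% TMT (10 of 10), and their part in the values of the 7 genes was not tested.

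**Figure D2:**
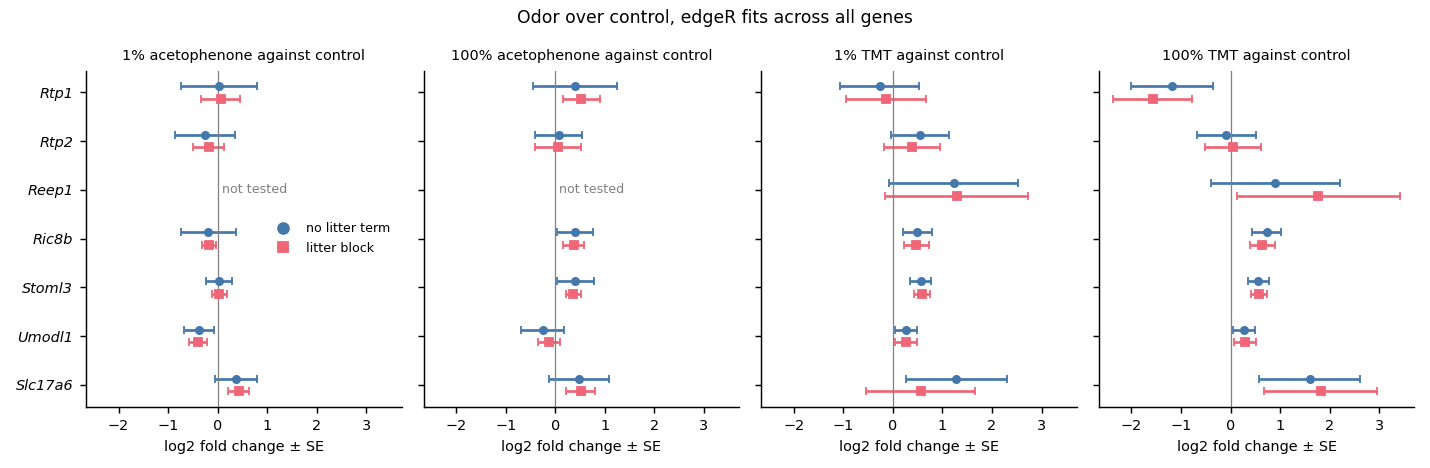
Log2 fold change of odor over control with its SE, from edgeR fits without a litter term (circles) and with litter as a block (squares). Stoml3, Ric8b, Umodl1 and Slc17a6 lie above 0 by more than their SE at both TMT doses in the fits without a litter term, and no gene passed the adjusted threshold.

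Stoml3 (chromosome 3, 53488653 to 53508502) exceeded its litter's control in every litter at both TMT doses. Its levels in litters 1 to 4 were 1889, 1520, 1607 and 966 CPM in controls, 1918, 2549, 2475 and 1753 CPM with 1% TMT and 2135, 1812, 2660 and 1850 CPM with 100% TMT. The control of litter 4 was the lowest of all 23 libraries, the control of litter 1 exceeded some odor libraries, and the groups overlapped at both doses. The log2 fold change with 100% TMT was 0.56 (SE 0.21, edgeR adjusted p = 0.259), and 0.58 within litters (SE 0.16, unadjusted p = 0.00394, edgeR adjusted p = 0.078). For 1% TMT it was also 0.56 (SE 0.21, edgeR adjusted p = 0.999), and 0.58 within litters (edgeR adjusted p = 0.689). Both doses are set against the same 4 control libraries, and without the control of litter 4 the log2 fold changes were 0.39 at either dose. Of all genes tested, 14.7% were higher in every litter with 100% TMT and 8.91% with 1% TMT. The control of litter 4 also had the lowest summed mature neuron markers (978 CPM). Per 100 counts of those markers Stoml3 had 99.3 to 156 counts with 100% TMT, against 79.4 to 118 in TMT controls. Whether the neuron content of the libraries has a part in the difference was not tested.

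With 100% acetophenone Stoml3 reached 2138, 4917 and 2786 CPM in litters 1 to 3, against 1751, 3098 and 2485 CPM in their controls. Each odor library exceeded its own control, while the groups overlapped because litter 2 was high in both. The log2 fold change was 0.40 (SE 0.37, edgeR adjusted p = 1), and 0.36 within litters (SE 0.15, unadjusted p = 0.0422, edgeR adjusted p = 0.897). Of all genes, 14.8% were higher in 3 of 3 litters. At 1% acetophenone the levels were 2480, 2628 and 2214 CPM in litters 3 to 5, against 2485, 2797 and 1980 CPM in controls, a log2 fold change of 0.02 (SE 0.27).

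Ric8b (chromosome 10, 84917616 to 85018337), the exchange factor for Gαolf, varied with litter more than with odor in the acetophenone experiment. With 100% acetophenone it had 226, 171 and 120 CPM in litters 1 to 3, against 156, 108 and 127 CPM in controls (log2 0.39, SE 0.37, edgeR adjusted p = 1). Litters 1 and 2 were higher and litter 3 lower, and the groups overlapped. At 1% it had 112, 261 and 334 CPM in litters 3 to 5, against 127, 272 and 416 CPM in controls, a little below them in each of the 3 litters (log2 -0.19, with an SE of 0.56 and an edgeR adjusted p of 1), where 14.9% of all genes were lower in every litter. All 4 libraries of litters 4 and 5 (261 to 416 CPM) exceeded all the other 19 (67.6 to 226 CPM), as did 1.37% of 13831 genes.

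In the TMT experiment Ric8b had 110, 86.9, 81.5 and 67.6 CPM in controls of litters 1 to 4, 98.6, 108, 150 and 124 CPM with 1% TMT and 113, 76.3, 220 and 141 CPM with 100% TMT. Litters 3 and 4 were higher at both doses, litter 1 hardly moved, and the groups overlapped. The log2 fold change was 0.73 with 100% TMT (SE 0.29, edgeR adjusted p = 0.267) and 0.49 with 1% TMT (SE 0.29, edgeR adjusted p = 0.999). Per 100 counts of mature neuron markers Ric8b had 4.80 to 12.9 counts with 100% TMT, against 4.64 to 6.92 in controls.

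Rtp1, a receptor transporter, was lower than control in 4 of 4 litters with 100% TMT. Levels in litters 1 to 4 were 18.6, 11.5, 25.8 and 5.74 CPM in controls, 12.5, 6.05, 6.13 and 25.6 CPM with 1% TMT and 10, 0.49, 14.1 and 2.30 CPM with 100% TMT. The control of litter 4 lay below 2 of the 100% libraries, so the groups overlapped, and 13.6% of all genes were lower in every litter. The value of 0.49 CPM stands for 3 counts. The log2 fold change with 100% TMT was -1.18 (SE 0.82, edgeR adjusted p = 0.54), and -1.57 within litters (SE 0.80, edgeR adjusted p = 0.307). With 1% TMT it was -0.27 (SE 0.80, edgeR adjusted p = 0.999), with litter 4 higher and litters 1 to 3 lower.

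With 100% acetophenone Rtp1 was higher in 3 of 3 litters, at 23.5, 22.4 and 5.65 CPM in litters 1 to 3, against 18.4, 18.5 and 2.21 CPM in controls. The values of litter 3 stand for 14 counts against 6, and 14.8% of all genes were higher in every litter. Litter 3 was far below litters 1 and 2 in both groups, and the groups overlapped (log2 0.40, SE 0.85, edgeR adjusted p = 1, or 0.53 within litters, SE 0.38, edgeR adjusted p = 0.897). At 1% acetophenone Rtp1 had 3.15, 8.95 and 13.2 CPM in litters 3 to 5, against 2.21, 12.5 and 10.2 CPM in controls (log2 0.02, SE 0.77).

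Rtp2, which lies 491587 bases from Rtp1 on chromosome 16 (23925548 to 23932394, minus strand, Rtp1 at 23429133 to 23433960, plus strand, mm10), did not follow the levels of Rtp1. With 100% acetophenone it had 11.1, 8.38 and 7.67 CPM in litters 1 to 3, against 7.31, 10.6 and 8.09 CPM in controls (log2 0.07, SE 0.47). At 1% it had 13.8, 15.4 and 29.6 CPM in litters 3 to 5, against 8.09, 27.3 and 35.4 CPM in controls (log2 -0.26, SE 0.61). Litters 4 and 5 were high in both groups, and the odor groups overlapped their controls.

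In the TMT experiment Rtp2 had 5.49, 6.84, 11.1 and 2.97 CPM in controls of litters 1 to 4, 5.05, 3.84, 20.8 and 8.02 CPM with 1% TMT and 5.001, 5.58, 5.93 and 7.27 CPM with 100% TMT. The 100% libraries lay closest together, and all 3 groups overlapped (log2 -0.08, SE 0.59, with 100% TMT, turning to 0.05 within litters, and 0.54, SE 0.59, with 1% TMT). The count of Rtp1 over that of Rtp2 ran from 0.0882 to 3.39 over the 23 libraries. It was 1.74 to 2.68 in acetophenone litters 1 and 2, 0.229 to 0.737 in litter 3 and 0.288 to 0.581 in litters 4 and 5, whatever the exposure. In the TMT experiment it was steady only in litter 1 (2 to 3.39). In litters 2, 3 and 4 it ran from 0.0882 to 3.19 and shifted within each litter: 1.67, 1.58 and 0.0882 in litter 2 at control, 1% and 100% TMT, 2.33, 0.294 and 2.38 in litter 3 and 1.94, 3.19 and 0.316 in litter 4. Reads with several alignments are not in these counts. In the authors' estimated counts, which hold them, both genes gained an equal percentage in each of the 23 libraries (0 to 12.8%, within 0.001). An equal gain leaves the ratio as it is, so it is no check of the ratio against reads that the genes may share.

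Reep1 (chromosome 6, 71707561 to 71810710) had at most 5.39 CPM. With 100% TMT it had 4, 16, 1 and 26 counts in litters 1 to 4, against 3, 16, 7 and 0 counts in controls. With 1% TMT it had 5, 22, 44 and 0 counts. High and low libraries occurred in every group, and the log2 fold changes of 0.91 with 100% TMT and 1.23 with 1% TMT had an SE of 1.30 each (edgeR adjusted p = 0.804 and 0.999). The 1% TMT libraries of litters 3 and 4, with 9159460 and 9526932 unique reads, had 44 and 0 Reep1 counts, so Reep1 differed between libraries of like depth. In the acetophenone experiment it had 3, 1 and 5 counts at 100%, against 3, 0 and 0 in controls of litters 1 to 3, and 1, 6 and 11 counts at 1%, against 0, 18 and 9 in controls of litters 3 to 5.

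Umodl1 (chromosome 17, 30954640 to 31010710) showed no steady direction between odor and control. With 100% acetophenone it had 206, 247 and 303 CPM in litters 1 to 3, against 236, 175 and 472 CPM in controls (log2 -0.25, SE 0.44). At 1% it had 277, 238 and 398 CPM in litters 3 to 5, against 472, 341 and 385 CPM in controls, lower in 2 of 3 litters (log2 -0.38, with an SE of 0.30 and an edgeR adjusted p of 1). In TMT controls it had 153, 144, 118 and 84.3 CPM in litters 1 to 4, then 145, 162, 159 and 125 CPM with 1% TMT and 111, 123, 190 and 157 CPM with 100% TMT. The groups overlapped, and the log2 fold changes were 0.28 with 100% TMT and 0.26 with 1% TMT (SE 0.22 each).

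Slc17a6 (chromosome 7, 51622006 to 51671119), the vesicular glutamate transporter, was higher than its litter's control in every acetophenone litter at both doses. With 100% acetophenone it had 19.1, 27.1 and 55.3 CPM in litters 1 to 3, against 18.4, 12.6 and 40.5 CPM in controls (log2 0.47, SE 0.61, edgeR adjusted p = 1, or 0.51 within litters, SE 0.29). At 1% it had 43.7, 31.8 and 29.0 CPM in litters 3 to 5, against 40.5, 23.9 and 17.3 CPM in controls (log2 0.37, SE 0.42, edgeR adjusted p = 1, or 0.42 within litters, SE 0.21). Litter 3 was highest in every group, the groups overlapped, and 14.8% (100%) and 16.7% (1%) of all genes were higher in every litter. Both doses share the control of litter 3.

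In the TMT experiment Slc17a6 was low and erratic. Controls of litters 1 to 4 had 2.15, 1.71, 2.84 and 0.56 CPM, 1% TMT libraries had 13.5, 1.48, 2.08 and 0.33 CPM and 100% TMT libraries had 5.39, 6.57, 1.11 and 8.04 CPM. Its level at 100% TMT exceeded the control in 3 of 4 litters (log2 1.60, with an SE of 1.03 and an edgeR adjusted p of 0.494), and with 1% TMT only litter 1 was higher (log2 1.28, SE 1.03, edgeR adjusted p = 0.999). Without the 1% TMT library of litter 1 the log2 fold change for 1% TMT was -0.49. These levels stand for 3 to 63 counts.

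Slc17a6 had a median of 27.1 CPM (12.6 to 55.3) in the 11 acetophenone libraries and 2.12 CPM (0.33 to 13.5) in the 12 TMT libraries. Umodl1 had a median of 277 CPM (175 to 472) in the acetophenone experiment and 144.5 CPM (84.3 to 190) in the TMT experiment. Controls were included in both, so the gap was present without odor. The experiments were separate sets of libraries, and an experiment and a batch cannot be told apart.

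Fitted within litters without acetophenone litter 3, log2 fold changes with 100% acetophenone were 0.31 for Rtp1, 0.12 for Rtp2, 0.59 for Ric8b, 0.47 for Stoml3 and 0.56 for Slc17a6, and that of Umodl1 turned to 0.14. With 1% acetophenone they were -0.06 for Rtp1, which turned, -0.53 for Rtp2, -0.18 for Ric8b, 0.04 for Stoml3, -0.23 for Umodl1 and 0.58 for Slc17a6. None of the 7 genes passed in either fit.

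For the 7 genes, as for the median of all genes (SD of log2 CPM 0.62 between and 0.43 within litters), litter means spread more than libraries within litters in the acetophenone experiment. The SD of log2 CPM between litter means was 1.03 for Rtp1, 0.83 for Rtp2 and 0.68 for Ric8b, against 0.43, 0.41 and 0.27 within litters. In the TMT experiment the order was the other way, with 1.47 within and 0.88 between litters for Rtp1 and 0.48 and 0.26 for Ric8b, as for the median gene (0.65 within and 0.42 between). A litter mean averages several libraries, so litter means spread less than single libraries even where litters do not differ. The spread within litters also holds the differences between odor, dose and control. Over all 23 libraries Stoml3 had an SD of 0.45, smaller than all but 12.2% of 13831 genes, and Slc17a6 had 2.01, with 91.8% of genes below it. The median gene had 0.95.

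**Figure D3:**
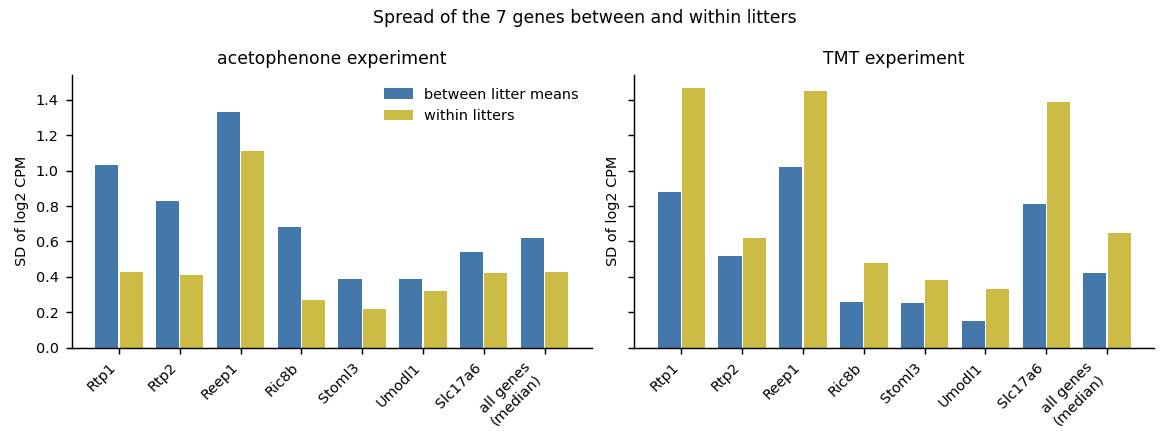
SD of log2 CPM between litter means (left bar) and within litters (right bar) for each gene and for the median of all genes. Litter means spread more than libraries within litters for all 7 genes with acetophenone, and less with TMT.

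Some of the levels moved with the neuron markers. Mature neuron markers summed to 3587 to 4449 CPM in acetophenone litters 4 and 5, 1563 to 1800 CPM in litter 3 and 978 to 2379 CPM in the TMT experiment. Set per marker count, the SD of the log2 level over 23 libraries was 0.35 for Ric8b (0.70 unscaled) and 0.64 for Rtp2 (0.92). For Stoml3 it was larger, at 0.55 (0.45). Slc17a6 kept 1.79 of 2.01. These are descriptions over libraries that share litters and depth, and the part of neuron number in any result was not tested.

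**Figure D4:**
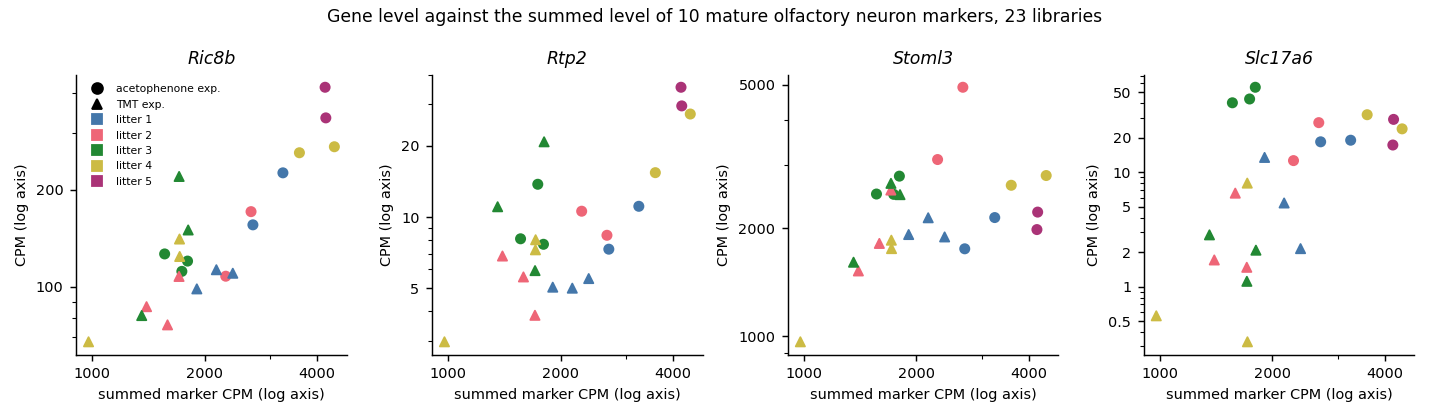
CPM of 4 genes against the summed CPM of 10 mature neuron markers in 23 libraries (log axes), coloured by litter. Ric8b is highest where the markers are highest, in acetophenone litters 4 and 5 (261 to 416 CPM), whereas Slc17a6 is highest in acetophenone litter 3 (40.5 to 55.3 CPM).

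Between doses, 100% against 1% acetophenone gave log2 fold changes, fitted with litter, of 0.55 for Rtp1 (SE 0.46), 0.45 for Ric8b (SE 0.21, edgeR adjusted p = 0.786), 0.29 for Stoml3 (SE 0.19), 0.24 for Umodl1 (SE 0.27) and 0.15 for Slc17a6 (SE 0.31). Without litter in the fit the values of Ric8b, Umodl1 and Slc17a6 turned to -0.47, -0.30 and -0.07. All Rtp2 libraries at 100% (7.67 to 11.1 CPM) lay below all at 1% (13.8 to 29.6 CPM), as for 2.84% of all genes. The doses share only litter 3, and with litter in the fit Rtp2 differed by a log2 of -0.06 (SE 0.47, edgeR adjusted p = 0.99). For 100% against 1% TMT Stoml3 differed by 0.00 (SE 0.21), Rtp1 by -0.91 (SE 0.82) and Rtp2 by -0.62 (SE 0.59). Ric8b differed by 0.23 (SE 0.29), Umodl1 by 0.01 (SE 0.22), Slc17a6 by 0.32 (SE 1.00) and Reep1 by -0.32 (SE 1.28, turning to 0.49 within litters), all 7 with edgeR adjusted p of at least 0.994.

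Related genes were read from lists of relatives of the RTP and REEP genes, G proteins, stomatins, vesicle release, and receptor choice with the unfolded protein response. Without the block none of their genes passed in edgeR in any comparison with control. The median log2 fold change with 100% TMT was 0.09 for the RTP and REEP relatives (6 of 7 tested), 0.00 for the G proteins (5 of 6), -0.12 for stomatins (3 of 4), -0.25 for vesicle release (7 of 13) and -0.27 for receptor choice (9 of 9), against 0.02 over all genes. Within litters 2 of them passed, both with 100% TMT and both in the list of receptor choice and unfolded protein response (1 higher and 1 lower of 9 tested, where 1.84% of all genes were higher and 0.529% lower). Hspa5, the chaperone BiP of the endoplasmic reticulum, had 469, 499, 418 and 726 CPM with 100% TMT in litters 1 to 4, against 181, 226, 246 and 265 CPM in controls. Every odor library exceeded every control, as for 4.65% of all genes. It rose 2.35-fold within litters (log2 1.24, SE 0.24, edgeR adjusted p = 0.0293), with 1.27 and an edgeR adjusted p of 0.124 without the block. A DESeq2 test without the block gave Hspa5 an adjusted p of 0.00148. Corrected for GC content and length the log2 fold change of Hspa5 was 0.83 (edgeR adjusted p = 0.0787). With 1 litter left out its edgeR adjusted p ran from 0.0253 to 0.137, passing only without litter 1.

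Lhx2, a homeodomain factor of receptor choice, had 686, 529, 817 and 552 CPM with 100% TMT in litters 1 to 4, against 1121, 1121, 1091 and 843 CPM in controls. Every litter was lower, and the 100% library of litter 3 and the control of litter 4 lay close together, so that the groups overlapped on the scale of the comparison. It fell within litters (log2 -0.65, SE 0.15, edgeR adjusted p = 0.0496), with -0.63 and an edgeR adjusted p of 0.169 without the block. A DESeq2 test without the block gave Lhx2 an adjusted p of 0.0258. After correction for GC content and length the log2 fold change of Lhx2 was -0.19 (edgeR adjusted p = 0.518). None of the 4 fits with 1 litter left out passed (edgeR adjusted p from 0.099 to 0.228). Immature neuron markers summed to 1324 to 2162 CPM with 100% TMT, against 2062 to 3060 CPM in controls, and the part of immature neurons in the Lhx2 difference was not tested. Among those markers Gng8, a G protein subunit, had 136, 85.8, 148 and 83.4 CPM with 100% TMT, against 262, 149, 269 and 152 CPM in controls (log2 -0.81 within litters, with an SE of 0.20 and an edgeR adjusted p of 0.0547). It was lower in 4 of 4 litters, with the groups touching. Over 19 alternative settings the log2 fold change of Gng8 ran from -0.98 to -0.40. With 1 library left out it ran from -0.98 to -0.69, so other settings gave the smallest differences. Another, Tubb3, a neuronal tubulin, fell within litters (log2 -1.10, with an SE of 0.13 and an edgeR adjusted p of 0.00603, or 0.0964 without the block), 1 of 6 such markers tested, where 0.529% of all genes were lower. Tubb3 was not followed under the GC and length correction or with libraries or litters left out, so its dependence on these was not tested.

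**Figure D5:**
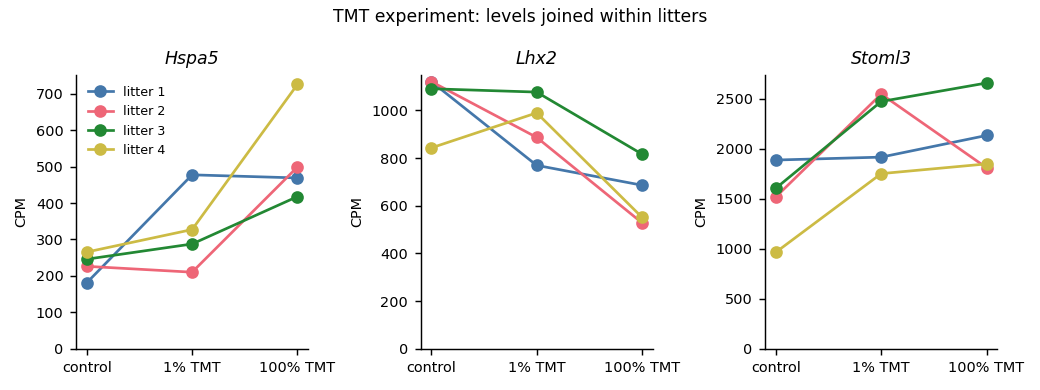
CPM of Hspa5, Lhx2 and Stoml3 in the TMT experiment at control, 1% and 100% TMT, joined within litters. Hspa5 at 100% TMT lies above all controls (418 to 726 against 181 to 265 CPM), and Stoml3 groups overlap.

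Other listed genes did not pass in edgeR. Atf5 (log2 -0.48) and Ddit3 (-0.65), transcription factors of the stress response, were lower than control in 4 of 4 litters with 100% TMT without overlap, as was Unc13a (-1.19), a vesicle priming protein, where 4.45% of all genes did so. Their edgeR adjusted p without the block were 0.29, 0.194 and 0.254. Among relatives, Rtp4 had 0.61 with 100% TMT (SE 0.39) and Reep5 -0.63 with 100% acetophenone (SE 0.48).

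By the root mean square difference of centred log2 CPM over 23 libraries, the nearest genes to Ric8b were Cdkl4 (0.38) and Osbpl5 (0.41), where the median gene was at 1.14. Rtp2 was also nearest to Osbpl5 (0.55, median gene 1.29). Umodl1 was nearest to Cnga4 (0.32, median gene 1.15), a subunit of the olfactory transduction channel, with Acss2 and Polr2a at 0.33. The measure covers both experiments and all litters, so shifts between these enter it. Stoml3 was nearest to Adipor1 (0.28, median gene 1.04). Rtp1 was nearest to Zfp446 (0.83), Reep1 to Zcchc2 (1.02) and Slc17a6 to Smim15 (0.73). Among the 7 genes Ric8b and Umodl1 lay closest (0.51), and Rtp1 and Slc17a6 farthest apart (2.49).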

How the data were processed

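Counts of pS6-bound RNA were analysed in 23 libraries. Per the submitters' processing notes Bowtie, bedtools and mm10 were used; the sources used here give neither versions nor the annotation. The deposited files have no header and 20 value columns that never decrease (0 decreases). From the values, the first deposited column was read as raw counts of uniquely aligned reads and used throughout. The last deposited column was read, from its fractional values, as the authors' estimated counts, which also hold multiply aligned reads; it was rounded and used only as an alternative. The other 18 columns were not used.

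edgeR 4.0.16 in R 4.3.3 was applied to all genes: TMM, filterByExpr with a minimum count of 10, the 2-sided quasi-likelihood F test, Benjamini-Hochberg adjustment, threshold 0.05. Each acetophenone dose was fitted with its own litters' controls, the TMT doses together; the acetophenone dose comparison has litter as a block. The labels' litter numbers pair libraries (same-litter correlations of 0.55 to 0.88 for acetophenone and 0.01 to 0.32 for TMT against control), so blocked values are given too. Fits were tested on simulated data with no litter effect and the same spread setting for every gene. That test does not cover litter effects like those in these libraries. DESeq2 1.42.0 and other settings were alternatives. Transcript length, GC content and positions come from GENCODE M21. Libraries of a group are 1 per litter; p-values measure the spread between these samples. All 7 genes are named in every comparison. Listed genes are named when they pass, or among those of smallest p; Atf5, Ddit3, Unc13a, Rtp4 and Reep5 were picked after their values were seen. The result of 1 list is not reported here. The 7 genes and the lists were chosen with earlier results of these data known. A count of 0 was taken to allow 3 counts, for counting error only.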

Additional observations from a re-analysis of the deposited data

Results flagged for a closer look

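Slc17a6 in the 1% TMT library of litter 1 had 13.47 CPM (40 counts), against 0.3295 to 2.083 CPM in the other 3 libraries of its group. Its gap to the nearest of them was 0.867 of the group's range, beyond Dixon's critical value for 4 samples. Of 28 groups of a gene examined in this way 1 was set apart, where chance gives about 1 in 20. The control of the same litter had 2.15 CPM and the 100% TMT library 5.39 CPM.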

How the results depend on the processing

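The count of the 7 genes passing stayed at 0 in all 99 alternative fits, taken over the 6 comparisons together, many of which leave out 1 library or 1 litter. The share of all genes called was 0% in the fits without the block and was not counted in most of the alternatives. A count of 0 thus does not set the 7 genes apart from other genes. Of the log2 fold changes (7 genes, Hspa5, Lhx2 and Gng8), 725 values under other settings kept direction and side of the threshold, 75 reversed and 5 passed where the reported fit did not (Hspa5 and Lhx2 with 100% TMT). Stoml3 with 100% TMT stayed positive throughout, at 0.39 to 0.70, and its replicate block value was 0.58. Leaving out whole litters within the block was chosen after seeing the data. Reversed log2 fold changes follow, with the reported value in brackets, and their cause was not tested. For 100% acetophenone against control, Rtp2 (0.0692) gave -0.14 to 0.21 with 1 library left out, -0.25 with the block and litter 1 left out. Lhx2 (0.44) gave -0.25 to 1.503 with 1 library left out. Rtp1 (0.3951) gave -0.0833 to 0.7954 with 1 library left out. Umodl1 (-0.25) gave -0.53 to 0.33 with 1 library left out, 0.14 with the block and litter 3 left out. Slc17a6 (0.47) gave -0.12 to 1.16 with 1 library left out. Hspa5 (0.26) gave -0.0638 to 0.53 with 1 library left out. For 1% acetophenone against control, Rtp1 (0.0222) gave -0.46 to 0.45 with 1 library left out, -0.0672 with multiply aligned reads, -0.0566 and -0.17 with the block and litter 3 or 5 left out. Lhx2 (0.0155) gave -0.5004 to 0.49 with 1 library left out, -0.00101 with multiply aligned reads, -0.0265 with the block and litter 3 left out. Stoml3 (0.0236) gave -0.11 to 0.15 with 1 library left out, -0.0203 with the replicate block and GC and length correction, -0.0714 with the block and litter 5 left out. Ric8b (-0.19) gave -0.54 to 0.24 with 1 library left out. Rtp2 (-0.26) gave -0.6968 to 0.14 with 1 library left out, 0.19 with the block and litter 4 left out. For 100% TMT against control, Rtp2 (-0.0842) gave -0.33 to 0.27 with 1 library left out, 0.0515 with the replicate block, 0.0907 and 0.175 and 0.25 with the block and litter 1 or 2 or 3 left out. For 1% TMT against control, Lhx2 (-0.14) gave 0.13 with the replicate block and GC and length correction. Slc17a6 (1.28) gave -0.49 to 1.68 with 1 library left out, -0.42 with the block and litter 1 left out. Rtp1 (-0.27) gave -0.87 to 0.0809 with 1 library left out, 0.19 and 0.26 with the block and litter 2 or 3 left out. Rtp2 (0.54) gave -0.19 to 0.89 with 1 library left out. For 100% against 1% acetophenone, Ric8b (0.45) gave -0.47 with no replicate block. Umodl1 (0.24) gave -0.2964 with no replicate block. Slc17a6 (0.15) gave -0.0458 to 0.34 with 1 library left out, -0.0657 with no replicate block. Rtp2 (-0.0585) gave -0.35 to 0.61 with 1 library left out. For 100% against 1% TMT, Reep1 (-0.32) gave -0.75 to 0.32 with 1 library left out, 0.49 with the replicate block, 0.4956 with the replicate block and GC and length correction, 0.98 and 1.05 and 1.94 with the block and litter 1 or 2 or 3 left out. Umodl1 (0.014) gave -0.14 to 0.12 with 1 library left out, -0.0095 with no filter on low counts, -0.00565 with multiply aligned reads, -0.0868 and -0.14 with the block and litter 3 or 4 left out. Ric8b (0.23) gave -0.0841 to 0.44 with 1 library left out, -0.00715 with the replicate block and GC and length correction. Stoml3 (-0.00098) gave -0.13 to 0.079 with 1 library left out, 0.15 with the block and litter 2 left out. Rtp2 (-0.62) gave -0.89 to 0.1041 with 1 library left out, 0.12 with the block and litter 3 left out. Slc17a6 (0.32) gave -0.0879 to 2.08 with 1 library left out, -0.00402 with the block and litter 4 left out. Levels moved by more than 1 SD in 17 cases (67 did not), 16 of them with multiply aligned reads, whose larger totals lower the CPM of these genes. Reep1 had 0 to 44 counts per library and Slc17a6 3 to 63 in the TMT experiment, so counting error is large for both; Rtp1 and Rtp2 spread widely between TMT libraries, and the cause was not tested.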
